A study of Homo sapiens with 4 samples.

Results

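*G0S2* and 9 genes of lipid droplet storage and breakdown were followed in OVCA420 cells, an epithelial ovarian cancer cell line, through a week of TGF-β1 treatment. The 10 genes (*G0S2*, *PNPLA2*, *ABHD5*, *PLIN2*, *PLIN3*, *HILPDA*, *DGAT1*, *DGAT2*, *LIPE* and *MGLL*) were taken by symbol from the 33694 genes of the count matrices, and each symbol matched 1 gene. The set was selected on the summed UMI levels of *G0S2* in these same libraries, which were known to be far higher after treatment, so its levels are a description and carry no test. Droplet-based 3′ single-cell RNA-seq libraries were made from cells without TGF-β1 (Ctrl) and from cells given 10 ng/mL TGF-β1, a cytokine that drives epithelial-mesenchymal transition, for 1, 3 or 7 days (1-day, 3-day and 7-day). Starts of treatment were staggered so that the 4 cultures were harvested together, cytokine and medium were renewed every 2 days, and no culture was split in the last 2 days. Each condition is 1 library of the same line, all 3 treated libraries are compared with the same Ctrl library, and no comparison has a replicate.

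Lipid droplets store triglyceride under a coat of perilipin proteins. The lipase ATGL, encoded by *PNPLA2*, makes the first cut in the breakdown of triglyceride, with the protein of *ABHD5* (CGI-58) as its coactivator, and hormone-sensitive lipase (*LIPE*) and monoglyceride lipase (*MGLL*) complete it. The small proteins G0S2 and HILPDA bind ATGL and inhibit it, while the enzymes of *DGAT1* and *DGAT2* carry out the last step of triglyceride synthesis.

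*G0S2* (ENSG00000123689) lies on the plus strand of chromosome 1 at chr1:209675412-209676390 (GRCh38, GENCODE release 44). It is a compact gene of 979 bases from start to end that lies inside the long antisense RNA gene *HSD11B1-AS1* on the other strand. *PNPLA2* (ENSG00000177666) is at chr11:818914-825573 on the plus strand. The 250 bases before the annotated start of each, from the RefSeq promoter table for GRCh38.p14, are shown as those of the inhibitor and the lipase it binds. Capitals mark exact matches, on either strand, to 4 short motifs: the TATA box core TATAA, the SMAD-binding element CAGAC, the PPAR response element (a direct repeat of AGGTCA around any 1 base) and the GC box GGGCGG.
*G0S2*, chr1:209675162-209675411 (+): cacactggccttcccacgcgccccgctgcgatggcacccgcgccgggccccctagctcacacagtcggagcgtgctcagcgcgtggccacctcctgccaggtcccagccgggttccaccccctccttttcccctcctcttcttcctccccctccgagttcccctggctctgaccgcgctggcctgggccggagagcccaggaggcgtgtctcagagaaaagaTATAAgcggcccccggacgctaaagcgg
*PNPLA2*, chr11:818664-818913 (+): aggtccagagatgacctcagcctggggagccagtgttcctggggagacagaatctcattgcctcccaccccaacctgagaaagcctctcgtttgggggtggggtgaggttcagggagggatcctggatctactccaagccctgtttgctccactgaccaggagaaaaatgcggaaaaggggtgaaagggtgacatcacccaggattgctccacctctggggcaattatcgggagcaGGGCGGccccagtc
The *G0S2* window held TATAA from 28 to 24 bases before the start and none of the other 3 motifs, and the *PNPLA2* window held only GGGCGG, from 14 to 9 bases before the start. Of the 35116 promoter windows of the same length, 18.9% held TATAA, 38.0% CAGAC, 42.6% GGGCGG and 0.0171% (6 windows) the full PPAR element. G and C made up 69.2% of the *G0S2* window and 58.4% of the *PNPLA2* window, against a median of 58% over all windows. A match describes these letters and does not show a bound site, and a missing match says nothing about the factor. Of the 10 genes, 6 had a window in the table. Among the other 4, *PLIN2* also held TATAA from 28 to 24 bases before its RefSeq start, on the opposite strand. Windows of *ABHD5*, *PLIN2*, *PLIN3* and *LIPE* held GGGCGG. The windows of *PLIN2* (chr9:19127493-19127742) and *ABHD5*, and the *LIPE* window at chr19:42423586-42423835, lie inside the spans that GENCODE gives these genes. They therefore precede starts other than the outer GENCODE ones. A *LIPE* window also held CAGAC, from 209 to 205 bases before its start.

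Levels are counts of unique molecular identifiers (UMIs) added up over a library's retained cells and scaled by its total (CPM, counts per 1000000), with exact Poisson 95% intervals. Ratios are log2 ratios of these levels with exact conditional 95% intervals. Both kinds of interval cover counting error only. They leave out how unevenly UMIs spread over cells and say nothing of how a second culture would vary. The cells analysed were the leading part of each cell list, 3170 of 10710 barcodes, of which 3144 were retained. They held 25382817 to 32949874 UMIs per library, so that the limit a count of 0 allows (3 UMIs) was 0.091 to 0.118 CPM. The median cell had 30270 UMIs in the Ctrl library and 32393, 43553 and 43382 in the treated libraries, by rising duration. Between 1 and 7 barcodes were shared by any pair of libraries among retained cells. The epithelial markers *EPCAM*, *KRT8*, *KRT18* and *KRT19* were abundant in every library (297 to 1698 CPM), whereas the ovarian markers *MUC1*, *MUC16*, *PAX8* and *WFDC2* were at 0.03 to 2.97 CPM. For adipocytes, the best-known cells with lipid droplets, the 6 markers summed to 0.78 to 2.23 CPM, with *ADIPOQ* and *LEP* at 0 UMIs in all 4 libraries. Within that list *FABP4*, a fatty acid carrier, had 0 UMIs in the Ctrl and 1-day libraries, 20 at 3-day and 50 at 7-day (1.97 CPM), so it moved in the direction of *G0S2*, while *CIDEC*, a droplet protein of fat cells, had 66, 55, 4 and 2 UMIs by rising duration. Their part in the results was not tested. Fibroblast markers summed to 0.28 to 1.37 CPM, leukocyte markers to 2.27 to 6.26 CPM and endothelial markers to 0.31 to 5.40 CPM.

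*G0S2* was almost silent without TGF-β1 and among the well-measured genes of the line after a week of it. Its level was 0.10 CPM in Ctrl (0.021 to 0.292, 3 UMIs), 0.577 CPM at 1-day (0.347 to 0.90, 19 UMIs), 15.4 CPM at 3-day (14.1 to 16.9, 496 UMIs) and 149 CPM at 7-day (144 to 153, 3773 UMIs). Each library stood above the one before it, and no intervals overlapped. The log2 ratio to Ctrl was 2.53 at 1-day (0.76 to 4.93), 7.27 at 3-day (5.71 to 9.55) and 10.54 at 7-day (8.99 to 12.82). The width of these intervals comes from the 3 Ctrl UMIs. Between treated libraries the counting intervals of the steps were narrower, at 4.74 from 1-day to 3-day (4.08 to 5.49) and 3.27 from 3-day to 7-day (3.13 to 3.41). They leave out the uneven spread of *G0S2* over cells. Without the cell with most *G0S2* UMIs at 3-day, the steps were 3.92 and 4.09, both outside these intervals. Among the 10260 genes with at least 5 CPM in the Ctrl or the 7-day library, no gene with a UMI in Ctrl had a higher 7-day ratio than *G0S2*, and a ratio could not be formed for 12 genes without a Ctrl UMI. The set was selected on these same *G0S2* levels and the ratio rests on 3 Ctrl UMIs, so this rank is a description only. *HSD11B1-AS1*, on the opposite strand of the same locus, had 10, 44, 21 and 64 UMIs in Ctrl, 1-day, 3-day and 7-day, far fewer than *G0S2* in the later libraries. The study's methods give default parameters for Cell Ranger, which did the counting, and do not name the strand setting.

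**Figure D1:**
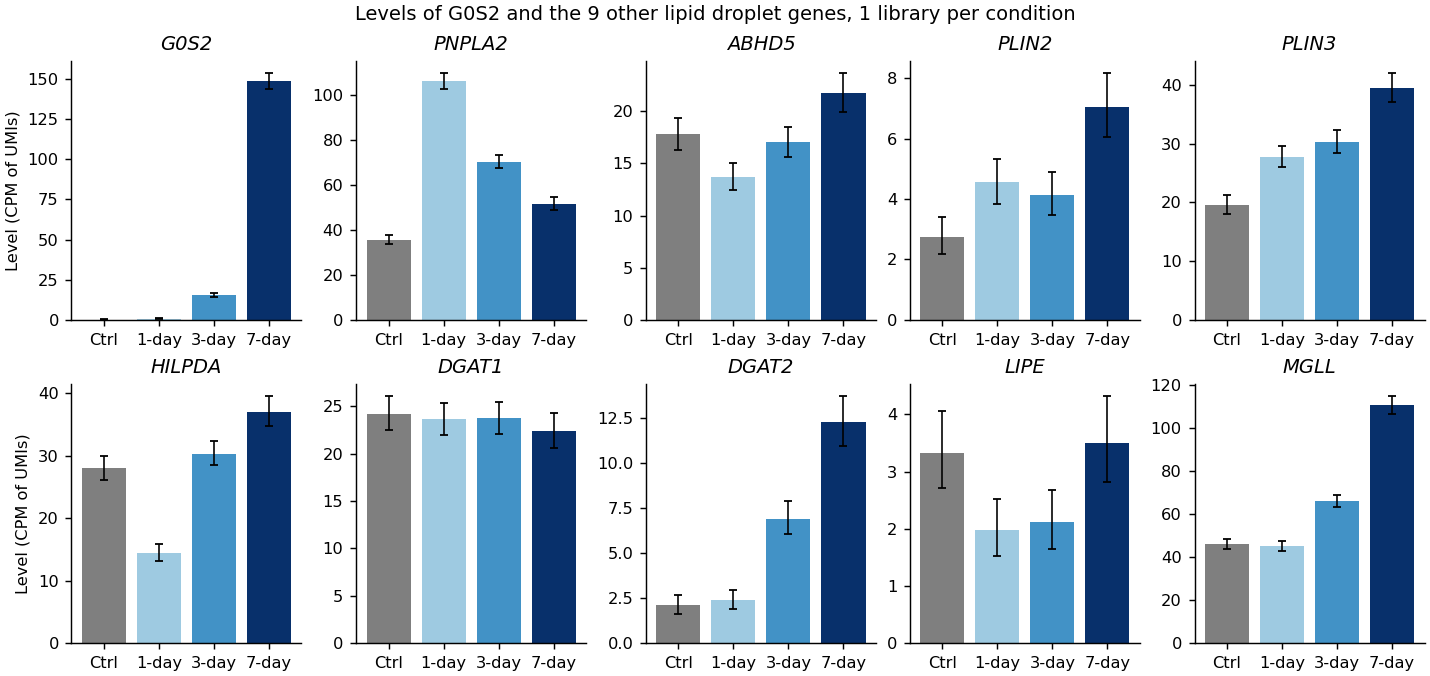
Level of each of the 10 genes (CPM of UMIs, one panel per gene, each with its own axis from 0) in the Ctrl, 1-day, 3-day and 7-day libraries; bars are 1 library each and error bars are exact Poisson 95% counting intervals. *G0S2* reached 149 CPM at 7-day from 0.10 CPM in Ctrl, *PNPLA2* was highest at 1-day (106 CPM), and *DGAT1* stayed between 22.3 and 24.2 CPM.

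The lipase that G0S2 inhibits followed another course. *PNPLA2* was at 35.7 CPM in Ctrl (33.6 to 37.9), 106 CPM at 1-day (103 to 110), 70.3 CPM at 3-day (67.4 to 73.3) and 51.6 CPM at 7-day (48.9 to 54.5). It was highest in the 1-day library, when *G0S2* still had only 19 UMIs, and lower in each later one, though still above Ctrl at 7-day. Its log2 ratio to Ctrl was 1.57 at 1-day (1.47 to 1.67), 0.98 at 3-day (0.87 to 1.08) and 0.53 at 7-day (0.41 to 0.65), and 7-day was below 1-day by a log2 ratio of -1.04 (-1.13 to -0.95). *ABHD5* (chr3:43690108-43734371, plus strand), the coactivator, was at 17.8 CPM in Ctrl (16.3 to 19.4), 13.7 CPM at 1-day (12.5 to 15.0), 17.1 CPM at 3-day (15.7 to 18.5) and 21.7 CPM at 7-day (20 to 23.6). Its log2 ratios to Ctrl were small, at -0.38 (-0.56 to -0.19), -0.06 (-0.24 to 0.11) and 0.29 (0.11 to 0.46), and the 3-day level did not differ from Ctrl beyond counting error. The lowest *ABHD5* level thus fell in the 1-day library, where *PNPLA2* was highest.

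Summed over the cells of each library and set against its partners UMI for UMI, *G0S2* passed from a trace to an excess. A UMI marks 1 tagged transcript, and these ratios were not divided by transcript length; capture can differ between genes, so the change across libraries is easier to read than the ratio itself. There were 0.280 *G0S2* UMIs per 100 *PNPLA2* UMIs in Ctrl (0.058 to 0.821), 0.544 at 1-day (0.327 to 0.850), 21.9 at 3-day (19.9 to 24.2) and 288 at 7-day (270.4 to 307). The 7-day library therefore held 2.88 *G0S2* UMIs for each *PNPLA2* UMI (2.70 to 3.07), while Ctrl held 357 *PNPLA2* UMIs for each *G0S2* UMI. The 7-day excess is one of sums, as the median 7-day cell had 0 *G0S2* UMIs and 2 *PNPLA2* UMIs. Against *ABHD5* the ratio was 0.905 at 3-day (0.800 to 1.02) and 6.84 at 7-day (6.25 to 7.49). The 3-day ratios leaned on 1 cell with 216 *G0S2* UMIs, and without it they were 12.4 per 100 *PNPLA2* UMIs (10.9 to 14.1) and 0.511 per *ABHD5* UMI (0.441 to 0.591). Against the droplet coat genes the 7-day ratio was 21.1 for *PLIN2* (18.1 to 24.6) and 3.77 for *PLIN3* (3.51 to 4.04).

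*HILPDA* (chr7:128455849-128458418, plus strand), which encodes the other small ATGL inhibitor and is known as a hypoxia-inducible gene, did not share the course of *G0S2*. Its level was 28.0 CPM in Ctrl (26.2 to 30.0), 14.4 CPM at 1-day (13.2 to 15.8), 30.3 CPM at 3-day (28.4 to 32.3) and 37.0 CPM at 7-day (34.7 to 39.5). It was lowest at 1-day, at a log2 ratio to Ctrl of -0.96 (-1.12 to -0.79), did not differ from Ctrl beyond counting error at 3-day (0.11, -0.02 to 0.25) and was slightly higher at 7-day (0.40, 0.27 to 0.54). In Ctrl nearly all inhibitor UMIs were those of *HILPDA*, with 280.3 for each *G0S2* UMI, whereas the 7-day library had 4.01 *G0S2* UMIs per *HILPDA* UMI (3.74 to 4.32). *HILPDA* per 100 *PNPLA2* UMIs went from 78.5 in Ctrl to 13.6 at 1-day, then to 43.1 and 71.8 in the later libraries.

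The coat genes were higher in every treated library. *PLIN2* (chr9:19108375-19149290, minus strand), whose protein coats droplets in most cell types, was scarce, at 2.73 CPM in Ctrl (2.17 to 3.39), 4.55 CPM at 1-day (3.85 to 5.34), 4.14 CPM at 3-day (3.47 to 4.90) and 7.05 CPM at 7-day (6.06 to 8.16). Its log2 ratio to Ctrl was 0.74 at 1-day (0.34 to 1.14), 0.60 at 3-day (0.19 to 1.01) and 1.37 at 7-day (0.98 to 1.76), with no difference beyond counting error between 1-day and 3-day. *PLIN3* (chr19:4838341-4867694, minus strand), a perilipin that is also found free in the cytosol, was more abundant, at 19.6 CPM in Ctrl (18.1 to 21.3), 27.8 CPM at 1-day (26.0 to 29.6), 30.4 CPM at 3-day (28.5 to 32.3) and 39.5 CPM at 7-day (37.1 to 42.0). Its ratios were 0.50 (0.35 to 0.65), 0.63 (0.48 to 0.78) and 1.01 (0.86 to 1.16), the last lying on the 2-fold limit. *PLIN3* too did not differ beyond counting error between 1-day and 3-day (0.13, -0.003 to 0.26).

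The enzymes of the last step of triglyceride synthesis differed from each other. *DGAT1* was at 24.2 CPM in Ctrl (22.5 to 26.0), 23.6 CPM at 1-day (22 to 25.4), 23.7 CPM at 3-day (22.1 to 25.5) and 22.3 CPM at 7-day (20.5 to 24.3). No treated library differed from Ctrl beyond counting error, with log2 ratios of -0.03 (-0.18 to 0.11), -0.03 (-0.18 to 0.12) and -0.12 (-0.28 to 0.05). *DGAT2* (chr11:75759512-75801535, plus strand) was at 2.10 CPM in Ctrl (1.61 to 2.69), 2.37 CPM at 1-day (1.87 to 2.95), 6.91 CPM at 3-day (6.03 to 7.88) and 12.3 CPM at 7-day (10.9 to 13.7). Ctrl and 1-day did not differ beyond counting error (0.17, -0.32 to 0.68), and the log2 ratio to Ctrl was 1.72 at 3-day (1.31 to 2.15) and 2.54 at 7-day (2.15 to 2.96). After *G0S2*, *DGAT2* had the highest 7-day ratio of the 10 genes.

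Of the downstream lipases, *MGLL* was higher late and *LIPE* was rare throughout. *MGLL* (chr3:127689062-128052190, minus strand) was at 45.9 CPM in Ctrl (43.5 to 48.4), 44.9 CPM at 1-day (42.7 to 47.3), 66.1 CPM at 3-day (63.3 to 69.0) and 110.4 CPM at 7-day (106 to 115), with log2 ratios to Ctrl of -0.03 (-0.14 to 0.08), 0.53 (0.43 to 0.63) and 1.27 (1.17 to 1.36). Over all cells Ctrl and 1-day were alike within counting error, and *MGLL* was next to *G0S2* the most abundant of the 10 genes at 7-day. *LIPE* (chr19:42401514-42427388, minus strand) was at 3.33 CPM in Ctrl (2.71 to 4.06), 1.97 CPM at 1-day (1.52 to 2.51), 2.12 CPM at 3-day (1.64 to 2.68) and 3.51 CPM at 7-day (2.82 to 4.32). It was lower than Ctrl at 1-day (-0.76, -1.23 to -0.29) and 3-day (-0.66, -1.12 to -0.20), and did not differ beyond counting error at 7-day (0.07, -0.36 to 0.50).

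**Figure D2:**
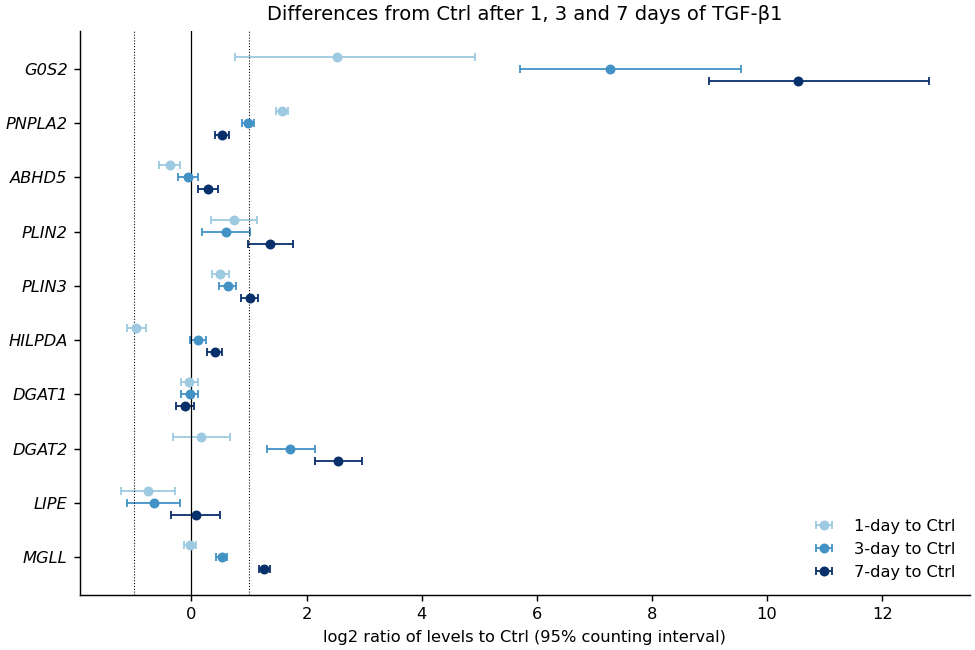
Log2 ratio of the level of each gene to Ctrl (horizontal axis) in the 1-day, 3-day and 7-day libraries; points are ratios of single libraries, bars are 95% counting intervals, and dotted lines mark 2-fold. *G0S2* lies at 2.53, 7.27 and 10.54. At 3-day and 7-day it is far to the right of the other 9 genes, at 1-day its interval includes the *PNPLA2* ratio of 1.57, and the other 7-day ratios run from -0.12 for *DGAT1* to 2.54 for *DGAT2*.

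A gene was counted as higher or lower when its level differed at least 2-fold, provided that 1 of the compared libraries reached 5 CPM. From Ctrl to 7-day, 12.1% of 10260 genes were higher and 6.22% lower. Of the 9 members past that filter, 5 were higher (*G0S2*, *DGAT2*, *PLIN2*, *MGLL* and *PLIN3*) and 0 lower, and their median log2 ratio was 1.01 against 0.10 over all genes tested. From Ctrl to 3-day, 10.1% of genes were higher and 6.97% lower, and 2 of 8 members were higher (*G0S2* and *DGAT2*) and 0 lower. From Ctrl to 1-day, 9.04% of genes were higher and 9.97% lower, and 1 of 6 members was higher (*PNPLA2*) and 0 lower. *G0S2*, *DGAT2* and *PLIN2* passed the filter only through treated libraries, so that *G0S2* and *DGAT2* had to count as higher once past it, *LIPE* never passed it, and the members had been chosen with the *G0S2* values in view, so these counts support nothing beyond the values of each gene. With size factors in place of total UMIs, *PLIN3* was under 2-fold at 7-day and 4 members were counted.

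Between treated libraries the members separated further. From 1-day to 3-day, 4.88% of genes were higher and 2.79% lower, and 3 of 8 members were higher, namely *G0S2*, *DGAT2* (1.55, 1.17 to 1.94) and *HILPDA* (1.07, 0.91 to 1.23). From 3-day to 7-day, 1.73% of genes were higher and 0.8% lower, and *G0S2* was the 1 member of 9 that was higher, while *DGAT2* (0.83, 0.57 to 1.08), *PLIN2* (0.77, 0.44 to 1.10) and *MGLL* (0.74, 0.66 to 0.82) stood below the 2-fold limit. Comparing 7-day with 1-day, 11% of genes were higher and 4.98% lower, and 4 of 9 members were higher (*G0S2*, *DGAT2*, *HILPDA* and *MGLL*) and 1, *PNPLA2*, was lower. In both comparisons with the 1-day library, *G0S2* (0.577 CPM at 1-day) and *DGAT2* (2.37 CPM) passed the filter only through the later library. They therefore had to count as higher once past it, and these counts support nothing beyond the values of each gene.

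The excess of *G0S2* was carried by a minority of cells. At least 1 *G0S2* UMI was found in 3 of 933 Ctrl cells (0.322%) and 13 of 937 cells at 1-day (1.39%). At 3-day it was found in 53 of 705 (7.52%, 5.68 to 9.72%) and at 7-day in 227 of 569 (39.9%, 35.8 to 44%). Treated cells were deeper at 3-day and 7-day, so cells were also thinned to 18000 UMIs each, without the shallower ones (89 in Ctrl, then 37, 28 and 20 in the treated libraries). The shares were then 0.237%, 0.667%, 3.69% and 25.5%, in the same order. No cell type that should lack *G0S2* was present in these libraries, so the share that free RNA gives could not be measured. The median cell had 0 *G0S2* UMIs in every library, 7-day included.

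In the 7-day library, 342 of 569 cells had no *G0S2* UMI, 101 had 1, 52 had 2 to 4, 15 had 5 to 9, 29 had 10 to 49 and 30 had 50 or more. The 59 cells with at least 10 UMIs were 10.4% of cells (7.99 to 13.2%) and held 91.2% of all *G0S2* UMIs, and 17 cells sufficed for 50% of them. Counts per cell ran from 0 to 225. The 3-day library was more uneven still: 652 of 705 cells had none and 6 cells had at least 10. Its top cell had 216 UMIs, 43.5% of those in the library, and the next had 80 and 57. These 3 cells had 52021 to 75517 UMIs of all genes, 4.8 to 6.26% on mitochondrial genes, and were not marked as doublets. Without the top cell the 3-day level of *G0S2* was 8.73 CPM (7.73 to 9.81), its log2 ratio was 6.45 to Ctrl and 3.92 to 1-day, and that of 7-day to 3-day was 4.09. Its ratio to Ctrl without the 10 top cells of each library was at least 3.94, with Ctrl set to the limit of 3 UMIs that a count of 0 allows. At 7-day it was at least 9.90 without the 10 top cells.

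**Figure D3:**
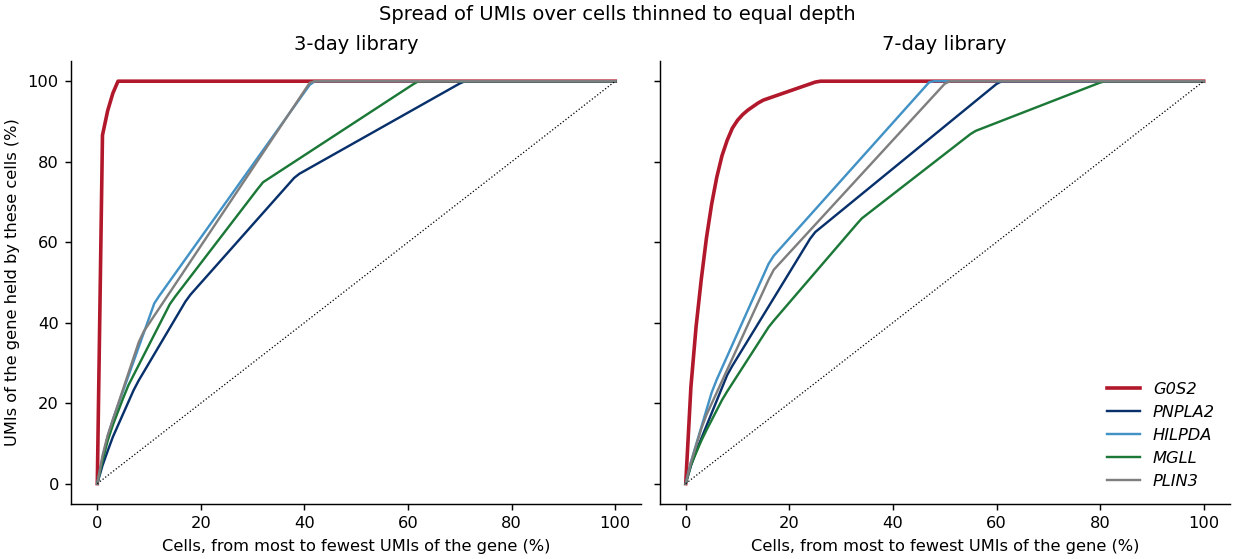
Cumulative share of the UMIs of a gene (vertical axis, %) held by cells ordered from most to fewest UMIs of that gene (horizontal axis, % of cells), in the thinned 3-day and 7-day libraries; the dotted diagonal is an even spread over cells. The top 1% of cells held 86.6% of *G0S2* UMIs at 3-day, and the *G0S2* curve lies above those of *PNPLA2*, *HILPDA*, *MGLL* and *PLIN3* in both libraries until all curves meet at 100%.

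No other member was spread so unevenly. In thinned cells the variance of *G0S2* was 40.6 times its mean at 3-day and 25.7 times at 7-day, whereas the ratio of variance to mean lay between 0.914 and 1.70 for the other 9 genes in all 4 libraries. A Poisson count has a ratio of 1. *PNPLA2* was found in 42.5% of thinned Ctrl cells and in 79.7%, 70.8% and 60.7% of thinned cells of the treated libraries by rising duration (59.2%, 91.1%, 87.9% and 82.4% before thinning). *MGLL* was found in 50.1%, 45.8%, 61.9% and 80.7% of thinned cells (63.8%, 62.4%, 83.1% and 92.8% before thinning), and *DGAT2* in 3.08%, 4.44%, 11.5% and 16.8% (6.00%, 6.40%, 22.3% and 33.7% before thinning). For these genes the share of cells moved in the same order of libraries as the level.

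To see whether cells with much *G0S2* differed in the other members, thinned 7-day cells were divided at 5 *G0S2* UMIs, a limit set after the counts per cell had been seen. At or above it were 51 of 549 cells (9.29%, 6.99 to 12.0%), which held 89.0% of the *G0S2* UMIs, with 12 cells just below at 3 or 4 UMIs and 3 just above at 5 or 6. At limits of 3 and 10 UMIs the shares were 11.5% and 7.10%. The lipase itself was alike on both sides, with *PNPLA2* at 59.9 CPM in *G0S2*-rich cells and 52.1 CPM in the others (log2 ratio 0.20, -0.23 to 0.61). *MGLL* (105 and 112 CPM; -0.10, -0.42 to 0.21), *ABHD5* (20.7 and 22.6 CPM; -0.13, -0.89 to 0.55), *PLIN3* (29.4 and 40.7 CPM; -0.47, -1.09 to 0.10), *PLIN2* (5.45 and 7.81 CPM; -0.52, -2.19 to 0.77) and *DGAT2* (17.4 and 10.6 CPM; 0.72, -0.15 to 1.49) did not differ beyond counting error either. *DGAT1* was lower in *G0S2*-rich cells, at 9.80 against 23.3 CPM (-1.25, -2.40 to -0.30), on only 9 UMIs, and so was *HILPDA*, at 25.1 against 40 CPM (-0.68, -1.35 to -0.07). *LIPE* had 1 UMI in *G0S2*-rich cells, too few to compare. Thinned 7-day cells were also divided by presence of a *G0S2* UMI (140 with, 409 without), the split first planned. *DGAT1* (-0.52, -1.04 to -0.03), *HILPDA* (-0.44, -0.82 to -0.07) and *PLIN3* (-0.37, -0.74 to -0.02) were then lower in cells with *G0S2*. Intervals included 0 for the rest, among them *PNPLA2* (0.11, -0.18 to 0.40) and *LIPE* (0.41, -0.83 to 1.55). Across the 549 thinned cells, which share 1 library, Spearman's rho between *G0S2* and the other members lay between -0.11 and 0.05, and it was 0.25 with the UMIs of the cell before thinning. *G0S2*-rich cells were deeper, with a median of 57333 UMIs before thinning against 42219 in cells without a *G0S2* UMI, and 2 of the 51 were marked as doublets. The part of depth in these differences was not tested. At 3-day only 5 thinned cells were at or above 5 UMIs, and no member could be told apart between them and the rest.

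**Figure D4:**
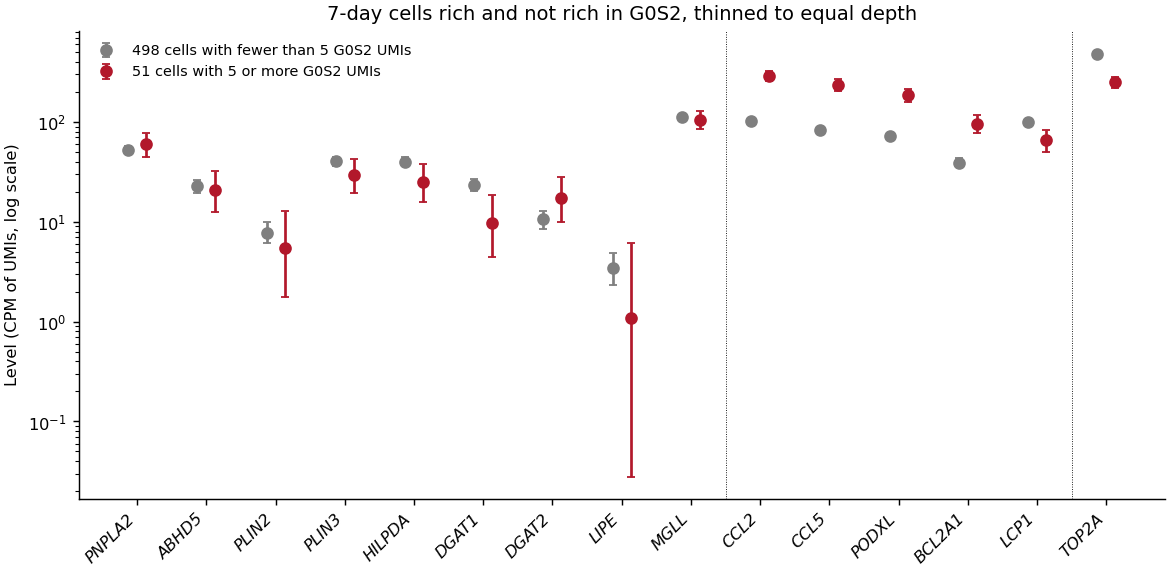
Level (CPM of UMIs, log scale) in thinned 7-day cells with 5 or more *G0S2* UMIs (51 cells, red) and with fewer (498 cells, grey) for the other 9 members, for the 5 genes whose course over the libraries was closest to that of *G0S2*, and for *TOP2A*; bars are exact Poisson 95% intervals. *PNPLA2* was at 59.9 and 52.1 CPM, *DGAT1* at 9.80 and 23.3 CPM, and *CCL2*, *CCL5*, *PODXL* and *BCL2A1* were higher in the *G0S2*-rich cells.

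Cells with a *TOP2A* UMI were not evenly shared among the libraries, and several members differed with it. *TOP2A*, a topoisomerase of dividing cells, had a UMI in 92.2% of Ctrl cells, 45.8% at 1-day, 74.6% at 3-day and 83.7% at 7-day (88.3%, 37%, 64.7% and 74.3% of thinned cells). A *TOP2A* UMI is no call of division, and how many cells owe theirs to free RNA could not be measured. In thinned 7-day cells *G0S2* was at 78.3 CPM in the 408 cells with a *TOP2A* UMI and 258 CPM in the 141 without (log2 ratio -1.72, -1.88 to -1.55), and at 3-day it was at 4.06 and 28.8 CPM (-2.83, -3.44 to -2.26). The 3-day split rested on few cells: 5 thinned cells held 82.1% of the 156 *G0S2* UMIs, 2 of them with and 3 without a *TOP2A* UMI. Without the top cell it was 4.06 and 11.9 CPM (-1.55, -2.24 to -0.89), and without the 10 top cells 8 and 7 UMIs were left and no difference beyond counting error (-0.70, -2.36 to 0.99). At 7-day the split without the 10 top cells was 61.0 and 138 CPM (-1.18, -1.39 to -0.97). A *TOP2A* UMI was present in 51% of *G0S2*-rich cells (26 of 51) at 7-day, in 82.0% of those with 1 to 4 *G0S2* UMIs (73 of 89) and in 75.6% of those with none, so its share did not change steadily with *G0S2*. *HILPDA* went the other way at 7-day, at 42.8 CPM with and 26.8 CPM without a *TOP2A* UMI (0.67, 0.29 to 1.07), and so did *ABHD5*, at 24.6 and 16.2 CPM (0.61, 0.11 to 1.14). *PNPLA2* was lower with *TOP2A* in Ctrl, at 31.7 against 51.6 CPM (-0.70, -1.03 to -0.36), at 3-day, at 71.2 against 86.7 CPM (-0.29, -0.48 to -0.09), and at 7-day, at 50.1 against 60.7 CPM, where the interval reached 0 (-0.28, -0.55 to 0.00). At 1-day, at 102 and 107 CPM, it did not differ beyond counting error. *DGAT2* was lower with *TOP2A* in Ctrl, at 1.49 against 5.05 CPM (-1.76, -2.96 to -0.44), but higher at 3-day, at 9.13 against 4.18 CPM (1.13, 0.37 to 1.96). *MGLL* was lower with it at 3-day (-0.37, -0.57 to -0.16). *PLIN3* (0.33, 0.05 to 0.61) and *LIPE* (1.46, 0.39 to 2.58) were higher with it at 1-day, and *ABHD5* (0.47, 0.04 to 0.92) and *HILPDA* (0.47, 0.14 to 0.81) at 3-day.

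When only cells without a *TOP2A* UMI were compared (73 in Ctrl, then 508, 179 and 93 in the treated libraries), *G0S2* had 0 UMIs in Ctrl and 0.586, 47.1 and 276 CPM by rising duration of treatment. The 7-day log2 ratio was at least 7.45 with Ctrl set to the 3-UMI limit of 1.57 CPM. The ratio of *PNPLA2* to Ctrl was then 1.03 at 1-day (0.74 to 1.33), 0.62 at 3-day (0.31 to 0.94) and 0.13 at 7-day (-0.21 to 0.49). These Ctrl cells held few UMIs of the members (103 of *PNPLA2*, 38 of *ABHD5*, 54 of *HILPDA*, 7 of *DGAT2*, 6 of *PLIN2* and 5 of *LIPE*), so most intervals were wide. At 7-day the ratio was 1.45 for *DGAT2* (0.27 to 2.86), 0.72 for *MGLL* (0.43 to 1.02) and 0.95 for *PLIN3* (0.44 to 1.49), and intervals that included 0 went with 0.64 for *PLIN2* (-0.76 to 2.26) and -0.95 for *LIPE* (-3.07 to 1.17). *ABHD5* (-0.52, -1.16 to 0.12) and *HILPDA* (-0.26, -0.77 to 0.26) had ratios below 0 where those over all cells were above it, again with intervals that included 0. At 1-day the ratio was below 0 for *ABHD5* (-0.71, -1.21 to -0.17), *HILPDA* (-1.10, -1.53 to -0.64) and *MGLL* (-0.57, -0.84 to -0.28). Over all cells *MGLL* had not differed from Ctrl at 1-day beyond counting error. The 1-day intervals of *PLIN2*, *PLIN3*, *DGAT1*, *DGAT2* and *LIPE* included 0. At 3-day the interval included 0 for all 8 members other than *G0S2* and *PNPLA2*, among them *DGAT2* (0.70, -0.47 to 2.10), *PLIN2* (0.12), *PLIN3* (0.29), *MGLL* (0.15) and *LIPE* (-1.62). The part of *TOP2A* in the ratios over all cells was not tested beyond this comparison.

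The 5 genes whose course over the 4 libraries was most like that of *G0S2* were *CCL2*, *CCL5*, *PODXL*, *BCL2A1* and *LCP1*. Likeness was the Euclidean distance between centred log2(CPM + 1) values over the 4 libraries, among 6330 genes with at least 20 CPM in a library, and it was 0.78 for *CCL2*, 1.02 for *CCL5*, 1.27 for *PODXL*, 1.39 for *BCL2A1* and 1.45 for *LCP1*. *CCL2* and *CCL5* encode chemokines, *PODXL* a sialomucin of the cell surface, *BCL2A1* an anti-apoptotic BCL2 protein and *LCP1* an actin-bundling protein. The closest, *CCL2*, was at 0 CPM in Ctrl (0 UMIs), 1.40 at 1-day, 23.2 at 3-day and 125 at 7-day. With a pseudocount of 0.1 CPM *LCP1* gave way to *GLIPR1*, and with 5 CPM *PODXL* and *BCL2A1* gave way to *TFPI2* and *PLAU*. These genes were also partly found in the same 7-day cells: *CCL2* was at 289 CPM in *G0S2*-rich cells and 103 CPM in the others (1.48, 1.28 to 1.68), *CCL5* at 235 and 83.2 CPM (1.5, 1.27 to 1.72), *PODXL* at 185 and 71.6 CPM (1.37, 1.12 to 1.62) and *BCL2A1* at 95.9 and 39.3 CPM (1.29, 0.93 to 1.63). *LCP1* was lower in *G0S2*-rich cells (65.4 and 100.3 CPM; -0.62, -1.02 to -0.24). Few cells held much of the chemokine UMIs: in thinned 7-day cells the variance was 45.3 times the mean for *CCL5* and 18.8 times for *CCL2*, and 10 cells held 50.9% and 32.7% of their UMIs. Without the 10 top cells of each gene the ratio of *G0S2*-rich to other cells was 0.84 for *CCL2* (0.54 to 1.13), 2.21 for *CCL5* (1.92 to 2.49), 1.17 for *PODXL* (0.86 to 1.46), 0.57 for *BCL2A1* (0.08 to 1.02) and -0.49 for *LCP1* (-0.89 to -0.11). Even so, a *CCL5* UMI was present in 54.9% of *G0S2*-rich cells (28 of 51) and in 25.9% of the others, so the cells rich in *G0S2* and those with *CCL5* overlapped only in part.

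Around the members, the other genes of triglyceride handling were read from lists drawn up by function. Over all genes past the filter at 7-day, 12.1% were higher and 6.22% lower. Of 15 genes of triglyceride synthesis upstream of the DGAT enzymes, 11 passed the filter at 7-day, of which 3 were higher and 2 lower, with a median log2 ratio of 0.43 against 0.10 for all genes. The lower ones were *GPAT3* (62.5 CPM in Ctrl, 9.18 CPM at 7-day; -2.77, -2.97 to -2.57), an acyltransferase of the first step, and *MOGAT1* (9.80 and 0.118 CPM; -6.37, -8.66 to -4.81), which acylates monoglyceride. *GPAT4* (35.0 and 85.7 CPM; 1.29), another first-step acyltransferase, *AGPAT2* (58.3 and 132 CPM; 1.18), of the next step, and *GPAM* (2.70 and 6.11 CPM; 1.18) were higher. *GPAT3* was already at 11 CPM at 1-day, while *DGAT2* had not yet moved beyond counting error.

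Of 19 other genes of the droplet coat and droplet formation, 10 passed at 7-day. Of these 0 were higher and 1 lower (12.1% and 6.22% over all genes), with a median of -0.02. That gene was *METTL7A*, a methyltransferase-like protein found on droplets (27.1 CPM in Ctrl, 2.88 CPM at 7-day; -3.24). *CIDEB*, a droplet protein of the CIDE family, was at 1.90, 14.7, 7.06 and 1.3 CPM over the 4 libraries, with its peak at 1-day as for *PNPLA2*. The perilipins that mark fat and muscle tissue, *PLIN1*, *PLIN4* and *PLIN5*, stayed at or below 0.43 CPM. Of 10 other lipases and sterol ester enzymes, 7 passed, with 2 higher and 1 lower and a median of -0.71: *NCEH1*, a cholesterol ester hydrolase, went from 19.6 to 76.9 CPM (1.97), *DDHD2*, a triglyceride lipase of neurons, from 7.53 to 17.8 CPM (1.24), and the carboxylesterase *CES1* from 202 to 26.4 CPM (-2.94).

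Among 18 genes of fatty acid uptake, binding and activation, 9 passed at 7-day. Of these 4 were higher and 1 lower (12.1% and 6.22% over all genes), with a median of 0.53. The higher ones were *FABP6* (0.333 and 7.29 CPM; 4.45), whose product binds bile acids, *ACSL4* (5.60 CPM in Ctrl, 27.1 CPM at 7-day; 2.27), which activates polyunsaturated fatty acids, *FABP5* (163 and 598 CPM; 1.88), a fatty acid carrier that peaked at 972 CPM at 3-day, and *SLC27A2* (1.00), and the lower was *SLC27A5* (-1.04). Fatty acid oxidation, which uses what lipolysis releases, had 13 of 18 genes past the filter at 7-day, with 0 higher and 4 lower (*CPT1A* -1.07, *CPT2* -1.04, *HADH* -1.16 and *ETFB* -1.14) and a median of -0.46. Its median was 0.06 at 1-day, where 1 of 15 genes was higher (*ACAA2*, 1.07) and 0 lower, beside 9.04% and 9.97% of all genes.

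*G0S2*, *PLIN2* and *HILPDA* are textbook targets of PPAR or hypoxia-inducible factors, so lists of other targets were read beside them. Of 12 PPAR receptors, coactivators and targets, 8 passed at 7-day. Of these 2 were higher and 3 lower (12.1% and 6.22% over all genes), with a median of -0.52. *ANGPTL4*, a secreted inhibitor of lipoprotein lipase, stood apart at 5.00 CPM in Ctrl and 263, 222 and 176 CPM at 1-day, 3-day and 7-day (5.14 at 7-day, 4.90 to 5.38), with its peak at 1-day where *G0S2* was still at 0.577 CPM. *PPARD* went from 5.90 CPM in Ctrl to 17.5 CPM at 7-day (1.57), while *PPARGC1B* (-1.91), *RXRA* (-1.09) and *CPT1A* were lower. Of 8 targets of hypoxia-inducible factors, 5 passed at 7-day, with 2 higher (*VEGFA* 2.39 and *ANKRD37* 1.35), 0 lower and a median of 0.79. At 1-day, when *HILPDA* was at its lowest, 3 of 5 were higher (*EGLN3* 2.90, *VEGFA* 2.15 and *NDRG1* 1.47), against 9.04% of all genes, and the median was 1.47. The other 2 past the filter, *ADM* (-0.46) and *BNIP3* (-0.68), lay below Ctrl but within 2-fold. *EGLN3* (1.70 CPM in Ctrl) passed the filter only through the 1-day library and had to count as higher once past it. At 7-day the same held for *FABP6*, past the filter only through the 7-day library. *GPAM* (2.70 CPM in Ctrl) and *ANKRD37* (2.53 CPM) also passed only through that library, and *METTL7A* (2.88 CPM at 7-day) only through Ctrl. Their calls were not fixed by the filter but were favoured by it. *MOGAT1* and *PPARGC1B* passed only through Ctrl and had to count as lower. *CPT1A* stands in both the oxidation and the PPAR lists. All lists were compiled with earlier results of these libraries known, and their counts describe them without a test.

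**Figure D5:**
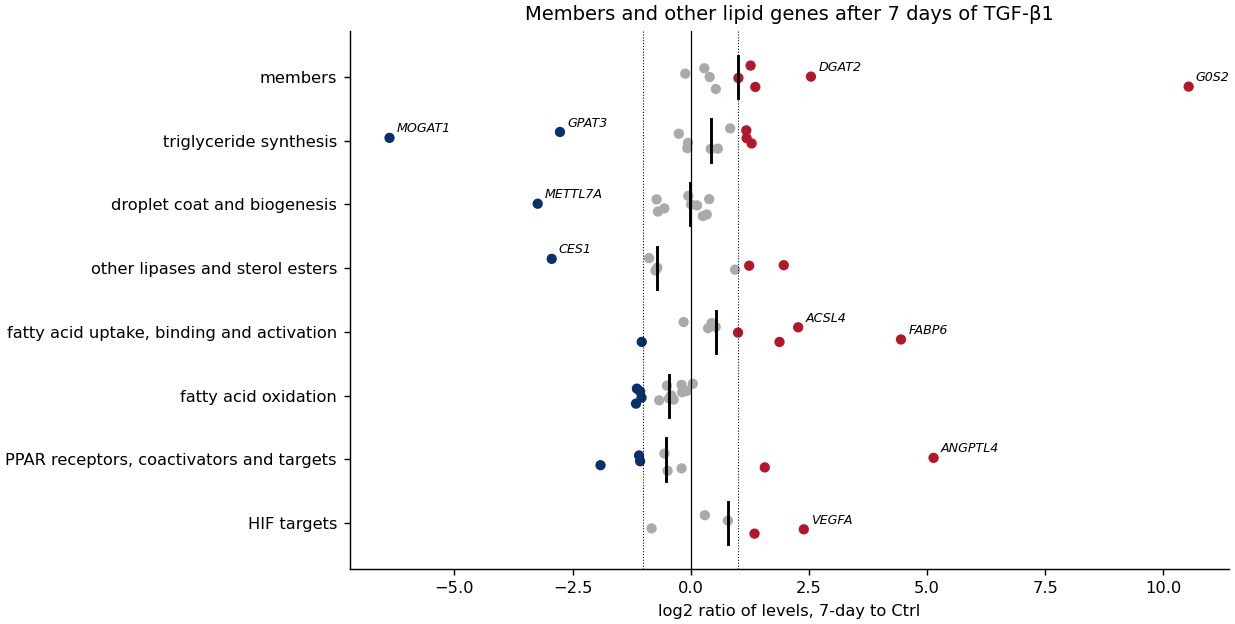
Log2 ratio of 7-day to Ctrl levels (horizontal axis) for the 9 members past the filter and 7 lists of lipid genes; each point is a gene with at least 5 CPM in either library, red points are at least 2-fold higher, blue points at least 2-fold lower, vertical bars are medians and dotted lines mark 2-fold. *G0S2* at 10.54 lies beyond every listed gene, and the list medians run from -0.71 for other lipases and sterol esters to 0.79 for targets of hypoxia-inducible factors.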

How the data were processed

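Single-cell RNA-seq was measured in 4 libraries of OVCA420 cells (Ctrl, 1-day, 3-day and 7-day), 1 per condition, grouped by the labels. The authors ran Cell Ranger 2.0.1 (per the submitters' processing notes) on GRCh38, with default parameters per the study's methods. They deposited raw UMI counts per gene and cell, without normalization. The labels name the v3 3′ kit, which is younger than that version, and the sources used here do not settle which was used. The gene annotation and the strand setting are not named in the sources used here. Of the 10710 barcodes listed, the leading 3170 cells were read and the rest were not analysed here. Cells with at least 200 genes and at most 20% mitochondrial UMIs were retained (3144 cells). Scrublet in scanpy 1.11.5 marked 40 cells (1.27%) as doublets, which were kept except in 1 alternative. SCTransform normalization and regression of covariates, described in the study's methods, were not applied.

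UMIs were summed per library and scaled to CPM by the total of the retained cells. With 1 library per condition no test could be made, and no p-value is given. Shares of cells have exact binomial (Clopper-Pearson) 95% intervals. All intervals and the 3-count limit cover counting error only. Genes named are the 10 members, the 5 closest in course to *G0S2*, the genes of each list that differed at least 2-fold (up to the 4 furthest from 0 where more did, plus *GPAM*, *SLC27A2*, *CIDEB*, *ADM*, *BNIP3* and *PLIN1*, *PLIN4* and *PLIN5*, named after their values were seen), markers and *TOP2A*. The members and lists were chosen with earlier results of these data known. Positions are from GENCODE release 44 by Ensembl identifier, and motifs were counted in RefSeq promoter windows. Alternatives were size factors, mitochondrial limits of 10% and none, doublets left out, thinning, means over cells, cells without *TOP2A*, the top cell or the 10 top cells left out, other filters (1 and 20 CPM, or none) and other pseudocounts (0.1 and 5 CPM). Analyses ran in Python 3.11.15 with numpy 2.4.6, scipy 1.17.1, pandas 2.3.3 and matplotlib 3.10.9, and the steps were tested on simulated data. The simulated library sums were Poisson counts, without the uneven spread over cells seen for *G0S2*. They therefore cannot show how well the intervals hold for a gene spread in that way.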

Additional observations from a re-analysis of the deposited data

Results flagged for a closer look

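*ABHD5* and *HILPDA* had ratios to Ctrl of opposite sign early and late, with intervals that excluded 0 at both times. For *ABHD5* the log2 ratio was -0.38 at 1-day and 0.29 at 7-day, and for *HILPDA* it was -0.96 at 1-day and 0.40 at 7-day. Each value rests on 1 library, both share the Ctrl library, and the difference was not tested. *TOP2A* had a UMI in 45.8% of cells at 1-day and 83.7% at 7-day. In cells without a *TOP2A* UMI the ratio of *ABHD5* was -0.71 at 1-day and -0.52 at 7-day. That of *HILPDA* was -1.10 and -0.26. Neither gene changed sign there, though both 7-day intervals included 0. The part of *TOP2A* in these differences was not tested beyond this comparison.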

How the results depend on the processing

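No paired analysis was possible because the conditions hold no replicates to pair. Of 24 alternative values of the *G0S2* ratio, 20 stayed within the counting interval. The other 4 were computed below that interval. In cells without a *TOP2A* UMI the ratio was at least 4.91 at 3-day and at least 7.45 at 7-day. Without the 10 top cells it was at least 3.94 at 3-day. In cells with fewer than 5 *G0S2* UMIs, a choice made after seeing the data, it was 6.78 at 7-day. Values given as at least are lower limits, with Ctrl at 0 UMIs set to 3, so they do not show a lower ratio. Without *TOP2A* the 3-day and 7-day levels (47.1 and 276 CPM) were above those over all cells (15.4 and 149 CPM). At 1-day the settings without *TOP2A* and without the 10 top cells gave no value. In the former the level of 0.586 CPM lay under the Ctrl limit of 1.57 CPM, and in the latter both libraries were at or under 3 UMIs. Of 216 values for the other members, 193 stayed within the interval, 21 moved (18 in cells without *TOP2A*, 3 on thinning) and 2 reversed, both in cells without *TOP2A* at 7-day (*ABHD5* -0.52, *HILPDA* -0.26), with intervals that included 0. On thinning, the share of cells with a *G0S2* UMI was 3.69% at 3-day and 25.5% at 7-day. The number of members at least 2-fold higher was 2 of 10 at 1-day with no filter, beside 3863 of 21409 genes (18%). With a 20 CPM filter it was 0 of 5 at 3-day and 3 of 7 at 7-day, beside 626 of 5961 genes (10.5%) and 714 of 6119 (11.7%). Without a filter, 3863 genes were higher and 4224 lower at 1-day (18% and 19.7%). At 3-day there were 3711 and 4430 (17.4% and 20.8%), and at 7-day 4295 and 4049 (20.2% and 19%). Size factors shifted the median of all genes by at most 0.09. The 3 UMIs of *G0S2* in Ctrl limit its ratios to Ctrl and make their intervals wide, so staying within them is a weak check. Without the top cell the 3-day ratio was 6.45 in place of 7.27 and still lay within. Only part of each library's cells was read.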

Other observations

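Within 100 kb of *G0S2* on chromosome 1, *LAMB3*, a laminin subunit gene on the minus strand whose nearer end lies 22987 bases from *G0S2*, had a Ctrl level of 61.8 CPM and treated levels of 298, 279 and 489.6 CPM by rising duration of treatment (log2 ratio 2.99 at 7-day, 2.92 to 3.06). Its level was thus high at 1-day, when *G0S2* had 19 UMIs. *HSD11B1*, 9788 bases away, had 1 UMI in Ctrl and 0 in the treated libraries, *TRAF3IP3* had 1 to 5 UMIs per library and *CAMK1G* 0 to 3. *G0S2* and *LAMB3* were therefore the protein-coding genes of this interval, among those in the matrices, with more than 5 UMIs in a library.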
